A study of Mus musculus with 10 samples.

Results

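The 10 genes described here are Cxcr2, Cxcr4, Cxcr5, Cx3cr1, Ackr3, Ackr4, Ccr4, Ccr9, Ccr10 and Cmklr1, which encode receptors for chemokines and for chemerin. They are 10 of the 24421 gene rows in the count tables, and they were listed by symbol after their levels in these pools were known, so their levels, fold changes and calls below are a description and test nothing about them. The counts come from 10 pools of mouse vagal sensory neurons, in 5 groups of 2 pools. For the Trpv1 selection, neurons were picked by their red fluorescence from 2 Trpv1-tdTomato mice, in which Cre recombinase driven from the Trpv1 gene switches on a ROSA26 tdTomato reporter. This gave Trpv1+ nodose pools of 30 cells, Trpv1+ jugular pools of 30 cells and, from the same mice, Trpv1- nodose pools of 15 unlabelled cells. The reporter marks every cell that has expressed Cre at any stage, and the mouse behind each pool is not given. For the capsaicin selection, neurons of C57BL/6 wild-type mice were first tested in a calcium assay. The nodose pools (14 and 15 cells) had responded to capsaicin and to the P2X agonist α,β-methylene-ATP, and the jugular pools (15 and 16 cells) to capsaicin only. Nodose neurons came from the most caudal part of the fused ganglion and jugular neurons from the most rostral part. Ages and sexes are not in the labels.

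The selections also differed in mouse strain, sequencing core and depth, so a difference between them cannot be assigned to any of these. The total count was 148452506 to 167704327 per pool for the Trpv1 selection and 17666710 to 30810863 for the capsaicin selection. Levels are in CPM, the normalised read count relative to library size, with size factors over all 10 pools. A limit of 3 counts, taken as the smallest value told from 0, equals at most 0.0154 CPM in any pool of the Trpv1 selection, whereas for capsaicin pools it lies between 0.118 and 0.176 CPM; such limits cover counting error only. The labels were checked on marker genes. Summed sensory neuron markers reached 6760 to 13800 CPM in every pool. P2rx2, a P2X receptor subunit that marks nodose neurons, reached 61.4 to 548 CPM in the nodose pools and at most 0.235 CPM in the jugular pools. Trpv1 itself was at 17.8 to 248 CPM in the selected pools and at most 0.0348 CPM in the Trpv1- nodose pools. Of the jugular markers, Prdm12 and Tac1 were at 22.2 CPM or more in the jugular pools and at most 0.767 CPM in the nodose pools. Some other listed markers followed the labels less closely. Runx1, a jugular marker, was at 34.2 to 124 CPM in the jugular pools and overlapped the nodose pools (5.05 to 79.3 CPM). Wnt1, also listed as a jugular marker, was at 0 CPM in every jugular pool. Of the other nociceptor markers, Trpa1 was at most 0.0193 CPM in the Trpv1- nodose pools. Scn10a (163 and 108 CPM) and Scn11a (57.9 and 82.7 CPM) lay there within the range of the selected pools. Of the Trpv1-negative nodose markers, P2ry1 and Nefh were highest in the Trpv1- nodose pools. Piezo2 was at 10.8 and 8.66 CPM there, at most 0.234 CPM in the other nodose pools and at 44.1 to 92.2 CPM in the jugular pools. Pvalb also peaked in a jugular pool. Because each library is a pool, fewer cells with a transcript and less of it per cell cannot be told apart.

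Chemokine receptors are G protein-coupled receptors that signal through Gi, best known for guiding leucocytes along gradients of chemokines. CXCR2 binds CXCL1, CXCL2 and related chemokines and draws neutrophils into inflamed tissue, and CX3CR1 binds fractalkine (CX3CL1) and marks macrophages and microglia. CXCR4 and ACKR3 share the ligand CXCL12, and CXCR5 binds CXCL13. CCR4 binds CCL17 and CCL22, CCR9 binds CCL25, and CCR10 binds CCL27 and CCL28. ACKR3 and ACKR4 are atypical receptors, which take up chemokines through arrestins without classical G protein signalling. CMKLR1 is not a chemokine receptor but binds chemerin, the product of Rarres2.

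The conventional receptors carry an Asp-Arg-Tyr triplet at the inner end of the third helix, where the G protein engages, within a stretch that is altered in the atypical receptors. The 30 coding bases that begin with this triplet are shown for 3 conventional receptors, for both atypical receptors, for Ccr10 and for Cmklr1, to let this stretch be compared among them. Capitals mark the codons at the position of the triplet, all sequences run 5′ to 3′ on the coding strand, and all lie in coding exons of the GENCODE vM21 annotation of GRCm38.
Cxcr2: GACCGCTACctggccattgtacatgccaca
Cx3cr1: GACCGGTACcttgccatcgtcctggccgcc
Ccr4: GACAGATACctggccatcgtgcacgcggta
Ackr3: GACCGCTATctctccatcacctacttcacc
Ackr4: GACAGATATtgggcaattaccaaagccccc
Ccr10: GACCGCTATgtggccatcgcacgagctctc
Cmklr1: GACCGCTGCatctccgtgctgctccccgtc
The Cxcr2 stretch lies at chr1:74158772-74158801 (plus strand, codons from 142), that of Cx3cr1 at chr9:120051927-120051956 (minus strand, from 127) and that of Ccr4 at chr9:114492567-114492596 (minus strand, from 134). The Ackr3 stretch lies at chr1:90214241-90214270 (plus strand, codons from 141), that of Ackr4 at chr9:104099312-104099341 (minus strand, from 136), that of Ccr10 at chr11:101174265-101174294 (minus strand, from 137) and that of Cmklr1 at chr5:113614510-113614539 (minus strand, from 134). Compared over the first 7 codons with the residues usual in conventional receptors (the triplet, then Leu, Ala, Ile and Val), the stretches of Cxcr2, Cxcr4, Cxcr5, Cx3cr1 and Ccr4 matched at 7 positions, that of Ccr9 at 6, those of Ackr3, Ackr4 and Ccr10 at 5, and that of Cmklr1 at 2. Ackr3 and Ackr4 kept the triplet itself, whereas the capital codons of Cmklr1 do not encode it in full. Ccr10, a conventional receptor, thus had as many changes in this window as the atypical receptors, so the window does not separate these classes.

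The 10 receptors were unequally present. Cxcr2 had more than 3 counts in all 10 pools and Cx3cr1 in 9 of 10. Ccr4 passed this limit in 6 pools, Ccr9 in 5, Ackr3, Ackr4 and Cmklr1 in 3 each, Cxcr5 in 2, and Cxcr4 and Ccr10 in 1 each. Cxcr2 made up 82.3% to 96.04% of the summed CPM of the 10 genes in each pool of the Trpv1 selection. Among capsaicin pools its share was 34.5% and 20.99% for nodose, and 73.14% and 96.43% for jugular neurons. Per kilobase of transcript, averaged over the 10 pools, Cxcr2 stood at 21.19 CPM, Ackr3 at 3.336, Cx3cr1 at 1.16 and each of the other 7 genes at 0.5128 or less.

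**Figure D1:**
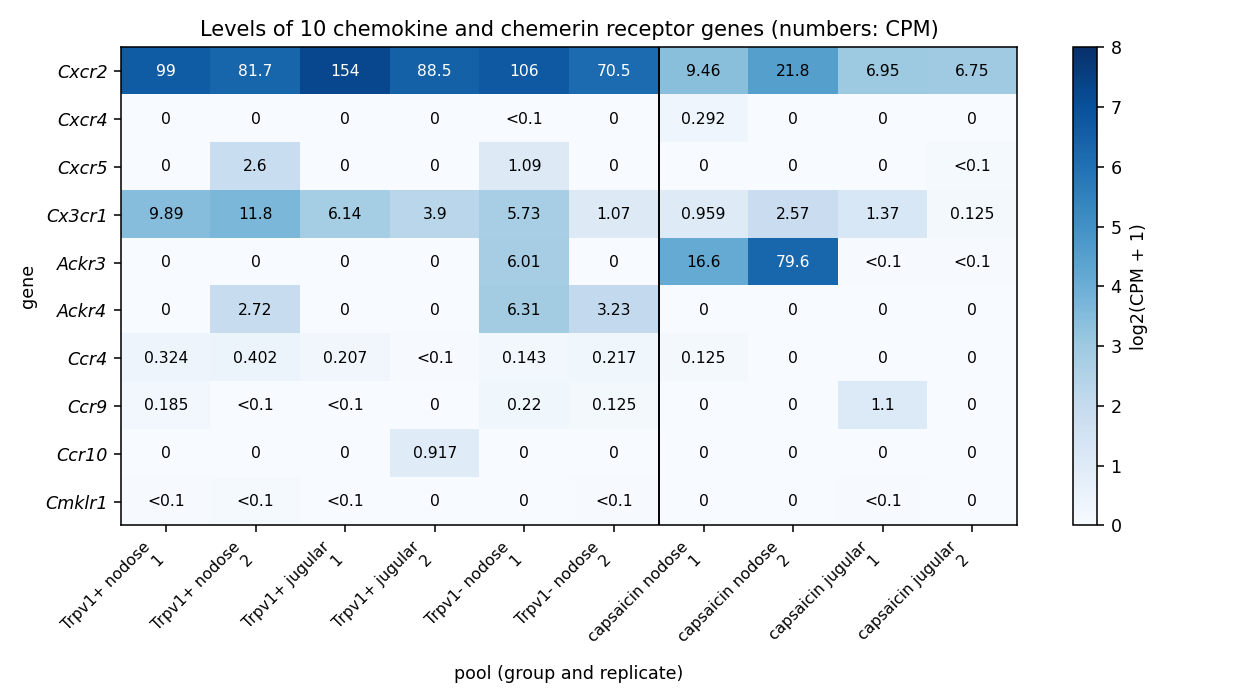
Level of each of the 10 receptor genes (rows) in each of the 10 pools (columns), with CPM printed in the cells and log2(CPM + 1) as colour; the vertical line parts the 6 pools of the Trpv1 selection from the 4 of the capsaicin selection. Cxcr2 and Cx3cr1 have reads in every pool, whereas Ackr3 has its highest values, 16.6 and 79.6 CPM, in the capsaicin nodose pools and 0 in the Trpv1+ pools.

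Cxcr2 was present in every pool and had the highest mean level per kilobase of these receptors in 4 of the 5 groups, the capsaicin nodose pools being the exception. It reached 99.03 and 81.68 CPM in the Trpv1+ nodose pools (90.35 ± 12.27, SD, n = 2), from 19239 and 16655 counts. The Trpv1+ jugular pools held 154.4 and 88.55 CPM (121.5 ± 46.57), and the Trpv1- nodose pools 106.4 and 70.49 CPM (88.45 ± 25.4). These groups overlapped, so neither the ganglion nor the Trpv1 label separated Cxcr2 levels within the Trpv1 selection. The capsaicin nodose pools held 9.463 and 21.82 CPM (15.64 ± 8.74) and the capsaicin jugular pools 6.945 and 6.754 CPM (6.85 ± 0.135). Both jugular pools lay below both nodose pools here, but these values rest on 162 to 373 counts each. The share of all genes with such an order between 2 groups is not given here, so the order is not read as a result. Over the 6 pools of the Trpv1 selection the highest value was 2.19 times the lowest; the median of this ratio over the 7792 genes above 3 counts in all 6 pools was 9.0.

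Every pool of the Trpv1 selection held more Cxcr2 than every pool of the capsaicin selection. The ratio of the mean levels was 8.9, and the lowest value of the first set was 3.23 times the highest of the second. Cxcr2 was the only one of the 10 genes with no overlap in this direction, which was also seen for 10% of the 11395 genes with at least 10 CPM in a pool. Of those genes, 776 had a ratio at least as large as that of Cxcr2. With 4 other scalings of the counts the ratio of means was 12.8 to 15.5, since each of them moved the Trpv1 selection up by 0.47 to 0.64 on the log2 scale relative to the capsaicin selection. Summed satellite glia markers moved the same way (2290 to 3410 CPM against 209 to 725 CPM, mostly Apoe), as did summed endothelial markers (31.2 to 63.8 CPM against 0 to 11.8 CPM, mostly Egfl7), and Schwann cell markers moved the other way (166 to 305 CPM against 933 to 1400 CPM, mostly Pmp22). The part of these cells in the Cxcr2 difference was not tested.

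CXCR2 is a neutrophil receptor, so neutrophil markers were read in the same pools. Of 6 measured, S100a9, Retnlg and Ngp had 0 counts in all 10 pools, and the summed level of the list was 1.64 to 9.44 CPM for the Trpv1 selection and 0.118 to 2.13 CPM for the capsaicin pools. Csf3r, the receptor for granulocyte colony-stimulating factor, lay at 1.64 to 3.24 CPM for the Trpv1 selection and 0.118 to 2.13 CPM for the capsaicin pools. S100a8 and Camp each exceeded the limit in 1 pool, a different Trpv1+ jugular pool in each case. The genes on either side of Cxcr2 on chromosome 1, Rufy4 and its closest paralogue Cxcr1, had 0 counts in all 10 pools. Cxcr2 (ENSMUSG00000026180.8, chr1:74153989-74161246, plus strand) has a transcript of 3046 bases. Of its 2997 windows of 50 bases, 122 (4.07%) also occur in transcripts of other genes, 107 in all, and every such window lies between bases 1680 and 2960, past the coding part that ends at base 1225. The share of Cxcr2 reads that fell there was not tested.

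**Figure D2:**
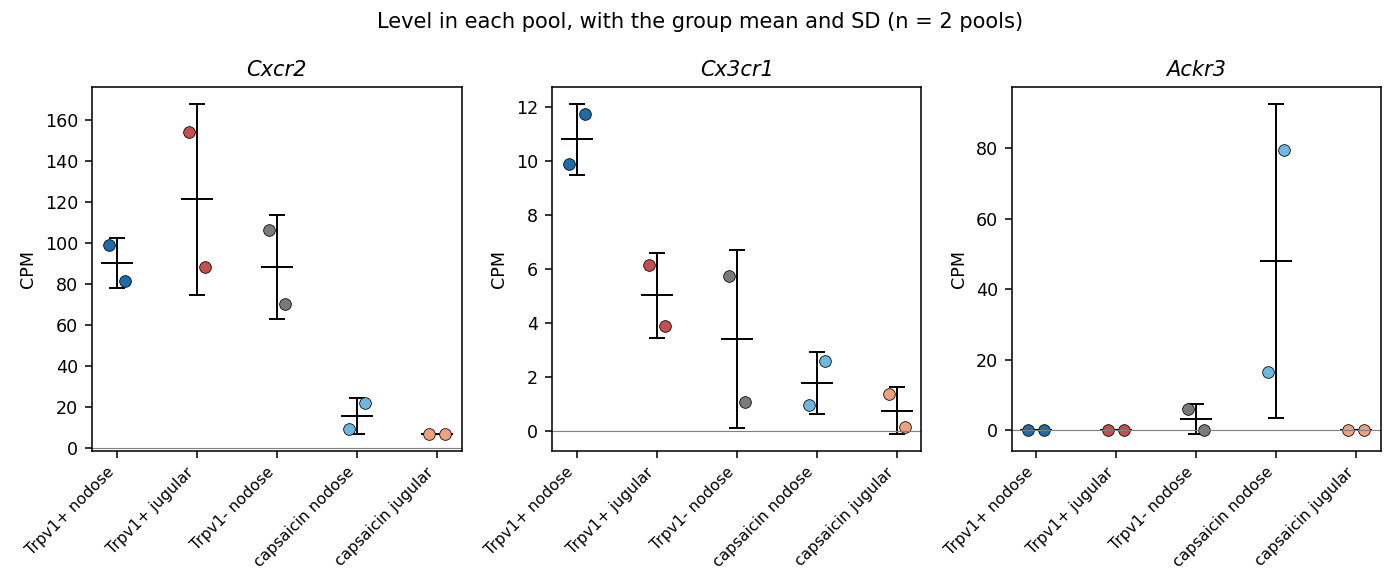
Levels of Cxcr2, Cx3cr1 and Ackr3 in CPM on the vertical axes, by group on the horizontal axes. Points are single pools, and the bar and whiskers give the mean and SD of 2 pools. Cxcr2 lies between 70.49 and 154.4 CPM in the 6 pools of the Trpv1 selection and between 6.754 and 21.82 CPM in the 4 capsaicin pools, and Ackr3 is at 0 in the Trpv1+ pools.

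Cx3cr1, the fractalkine receptor, was highest in the Trpv1+ nodose neurons. Its levels there were 9.893 and 11.75 CPM (10.82 ± 1.313, SD, n = 2). The Trpv1+ jugular pools held 6.141 and 3.902 CPM (5.022 ± 1.583), and the Trpv1- nodose pools 5.73 and 1.068 CPM (3.399 ± 3.297). The Trpv1+ nodose pools lay above all other pools, and the next groups overlapped with each other. The share of all genes with such an order is not given here, so it is not read as a result. In the capsaicin selection Cx3cr1 was at 0.9588 and 2.574 CPM in the nodose pools and at 1.373 and 0.1251 CPM in the jugular pools, the last from 3 counts. The second Trpv1- nodose pool, with 1.068 CPM, fell within the range of the capsaicin pools, so Cx3cr1 did not separate the selections although the ratio of their means was 5.1. Its highest value in the Trpv1 selection was 11 times its lowest. Of 12 macrophage markers, 10 had 0 counts in all pools, among them Csf1r, Aif1, C1qa, Tyrobp and Ptprc. Cd68 was at 75.7 and 17.9 CPM in the first capsaicin nodose pool and the first capsaicin jugular pool, at 4.66 CPM in the first Trpv1+ nodose pool and at 0.117 CPM or less in the other 7 pools. Cx3cr1 was at 0.9588 CPM in that capsaicin nodose pool, 1.373 CPM in that capsaicin jugular pool and 9.893 CPM in that Trpv1+ nodose pool. The part of macrophages in the Cx3cr1 counts was not tested. A non-coding gene, Gm33858, overlaps Cx3cr1 (ENSMUSG00000052336.7, chr9:119901616-120069879, minus strand) and has no row in the count tables.

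Ackr3, the scavenger of CXCL12, was highest in the capsaicin nodose pools. The capsaicin nodose pools held 16.59 and 79.57 CPM (48.08 ± 44.53, SD, n = 2), from 398 and 1360 counts, and each capsaicin jugular pool had 1 count. The summed counts were 1758 and 2. Scaled by the size factors, their ratio was 1060. Its exact binomial 95% interval, 293 to 8750, reflects how little 2 counts fix the ratio. The interval takes reads as independent, which amplified reads are not. It leaves out the spread between pools and is not used as a test. In the Trpv1 selection the first Trpv1- nodose pool held 6.008 CPM from 1555 counts. The other 5 pools, including both Trpv1+ nodose pools, had 0 counts, which allows at most 0.0154 CPM. The nodose pools thus fell on opposite sides: both capsaicin-responsive pools had Ackr3, and both Trpv1+ pools, sequenced to a greater depth, had none. How many of all genes show this order is not given here, so it is not read as a result. Per kilobase, Ackr3 exceeded Cxcr2 in both capsaicin nodose pools, at 5.413 against 3.107 CPM in the first and 25.96 against 7.164 CPM in the second. Ackr3 (ENSMUSG00000044337.5, chr1:90203980-90216751, plus strand) shares no 50-base window with another gene, and of its neighbours Iqca had 0 counts in all pools and Cops8 was at 76.89 to 226.2 CPM in every pool. Cxcr4, which binds the same ligand, had 7 counts in the first capsaicin nodose pool, 1 in the first Trpv1- nodose pool and 0 in the other 8.

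Ackr4, the scavenger of CCL19, CCL21 and CCL25, was found in nodose neurons of the Trpv1 selection only, and in 3 of those 4 pools. Both Trpv1- nodose pools held it, at 6.31 and 3.225 CPM (4.767 ± 2.181, SD, n = 2). The second Trpv1+ nodose pool had 2.717 CPM, and the first had 0 counts. The 2 Trpv1+ jugular pools and the 4 capsaicin pools had 0 counts. Each Trpv1- nodose pool was above each Trpv1+ nodose pool, but the share of all genes with this order is not given here. Ackr4 overlaps Acad11, an acyl-CoA dehydrogenase gene, and the strand setting of the counting is not given. Acad11 was at 0.02318 and 0.5758 CPM in the Trpv1- nodose pools, where Ackr4 was highest. It was at 21.54 CPM in the first capsaicin jugular pool, where Ackr4 had 0 counts. In the first Trpv1+ nodose pool, with 0 counts of Ackr4, Acad11 was at 4.977 CPM. In the second, with 2.717 CPM of Ackr4, it was at 12.26 CPM. The share of Ackr4 counts that came from Acad11 reads was not tested.

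The other receptors were low or seen in single pools. Cxcr5 had 531 counts (2.604 CPM) in the second Trpv1+ nodose pool, 281 counts (1.086 CPM) in the first Trpv1- nodose pool, 2 counts in the second capsaicin jugular pool and 0 in the other 7. Cxcr5 overlaps Bcl9l, a Wnt cofactor gene that was at 2.001 CPM in that capsaicin jugular pool and had 0 counts in the other 9, including both pools with more than 3 Cxcr5 counts. Ccr10 had 227 counts (0.917 CPM) in the second Trpv1+ jugular pool and 0 in the other 9. Ccr10 overlaps Cntnap1, a gene of axon-glia contacts that was at 4.706 CPM in that pool and at 24.55 CPM in the first Trpv1+ jugular pool, where Ccr10 had 0 counts. Neither gene was therefore detected in both pools of any group.

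Ccr4 was low but present in every pool of the Trpv1 selection. It reached 0.3243 and 0.4021 CPM in the Trpv1+ nodose pools, 0.143 and 0.217 CPM in the Trpv1- nodose pools, and 0.2067 and 0.03636 CPM in the Trpv1+ jugular pools. Both Trpv1+ nodose pools lay above the 4 others, on 9 to 82 counts per pool, but the share of all genes with this order is not given here. In the capsaicin selection Ccr4 had 3 counts in 1 nodose pool and 0 in the other pools. There the limit of 0.118 to 0.176 CPM would have hidden some of these levels. Ccr9 was at 0.2202 and 0.1252 CPM in the Trpv1- nodose pools, at 0.1853 and 0.01962 CPM in the Trpv1+ nodose pools and at 3 counts or fewer in the Trpv1+ jugular pools. Its highest value, 1.099 CPM from 28 counts, came from the first capsaicin jugular pool, and the other capsaicin pools had 0 counts. Cmklr1 had at most 15 counts in a pool and passed the limit in both Trpv1+ nodose pools and the second Trpv1- nodose pool.

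Detection in 1 pool of a pair was frequent. Of the 26 combinations of a receptor and a group with more than 3 counts in at least 1 pool, 9 (34.6%) had them in 1 pool alone. Over all 24421 genes this share was 28.5% (16190 of 56808 combinations).

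**Figure D3:**
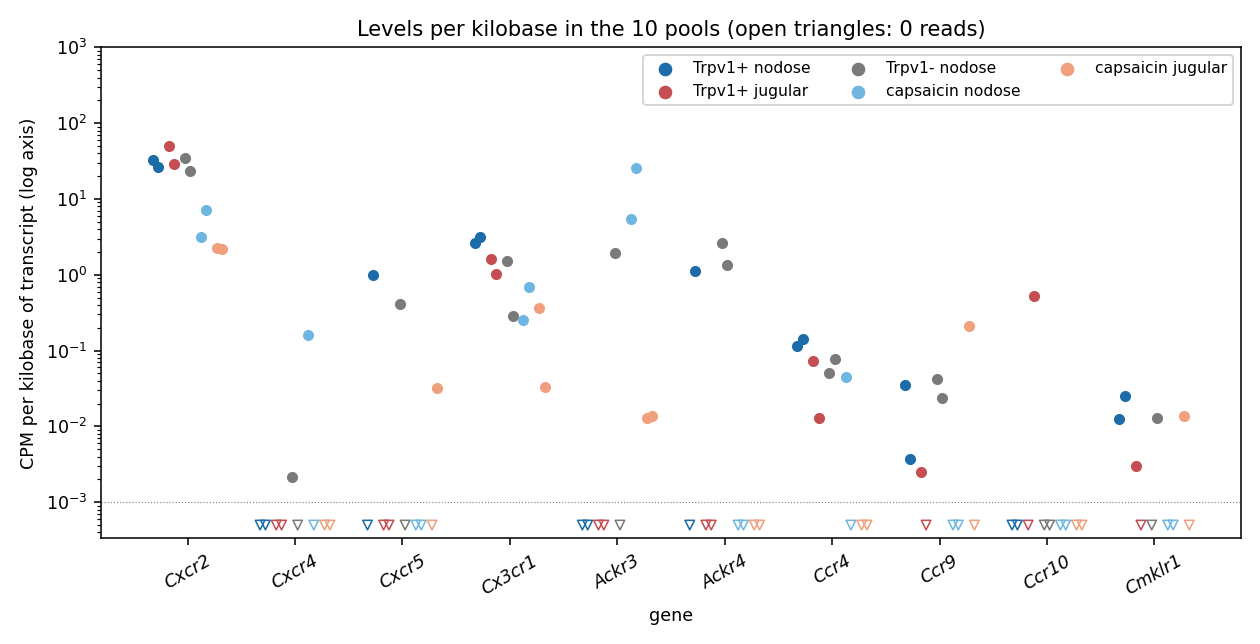
CPM per kilobase of transcript (log axis) of each receptor gene in the 10 pools, coloured by group; open triangles below the dotted line mark pools with 0 reads. Cxcr2 lies at 2.217 to 50.69, Ackr3 lies above Cxcr2 in both capsaicin nodose pools at 5.413 and 25.96, and Cxcr4, Cxcr5 and Ccr10 are at 0 in most pools.

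The study compared nodose with jugular neurons within each selection, and Trpv1+ with Trpv1- nodose neurons. Each comparison was fitted over all genes with edgeR's quasi-likelihood test, and a gene was called at an adjusted p of at most 0.1 (Benjamini-Hochberg), a fold change of at least 2 and at least 10 CPM in both pools of a group. Within the Trpv1 selection, 3 of the 10 receptors passed the filter on low counts, and none was called by edgeR or by DESeq2. The background was 0.318% of 10990 genes called by edgeR (1305, or 11.9%, at an unadjusted p under 0.05) and 3.84% by DESeq2. The log2 fold change of nodose over jugular was -0.43 ± 0.54 (SE) for Cxcr2, 1.10 ± 1.86 for Cx3cr1 and 1.57 ± 1.45 for Ccr4. The value for Cxcr2 was 0.0 without the first Trpv1+ jugular pool and -0.79 without the second, so the higher mean in jugular neurons came from 1 pool. The value for Ccr4 was 3.28 without the first Trpv1+ jugular pool and 0.79 without the second. Their median was 1.10, and that of all genes tested was 0.03.

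Within the capsaicin selection, 3 receptors passed the filter. No receptor, and 0% of the 8181 genes tested, was called by edgeR, although 1150 genes (14.1%) had an unadjusted p under 0.05. DESeq2 called 6.58% of all genes and 1 receptor, Ackr3, which passed the filter through the capsaicin nodose pools alone, so nothing is read from its call. The log2 fold change of nodose over jugular was 0.78 ± 2.31 (SE) for Cxcr2 and 0.85 ± 1.77 for Cx3cr1. The fitted value for Ackr3 was 9.59 ± 3.25, but it rests on 2 jugular counts, as does the ratio above, and on the fit's prior count. The median over these 3 genes was 0.85, against -0.02 over all genes. Without the second capsaicin jugular pool, which held 3 counts of Cx3cr1, the value for Cx3cr1 was 0.0, and without the first it was 3.32.

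Between Trpv1+ and Trpv1- nodose neurons, which share the Trpv1+ nodose pools with the first comparison, 6 receptors passed the filter. None was called by either tool, against 0.0527% of 11386 genes called by edgeR (1264, or 11.1%, at an unadjusted p under 0.05) and 2.76% by DESeq2. The log2 fold change was 0.05 ± 0.54 (SE) for Cxcr2, and leaving out 1 pool at a time moved it between -0.25 and 0.42. It was 1.68 ± 2.0 for Cx3cr1, with 3.41 when the first Trpv1- nodose pool was left out. For Ccr4 it was 1.05 ± 1.27, for Ccr9 -0.74 ± 1.43, for Ackr4 -1.78 ± 3.13 and for Cxcr5 1.27 ± 3.68. When single pools were left out, Ccr9 ran from -3.06 (without the first Trpv1+ nodose pool) to 0.12 (without the second), and Ackr4 from -0.77 to -13.11 without the same pools. Cxcr5 and Ackr4 each had 0 counts in 1 or more of the 4 pools, and the value for Cxcr5 ran from -10.00 to 11.16 when single pools were left out. The median over the 6 genes was 0.55, against 0.01 over all genes.

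**Figure D4:**
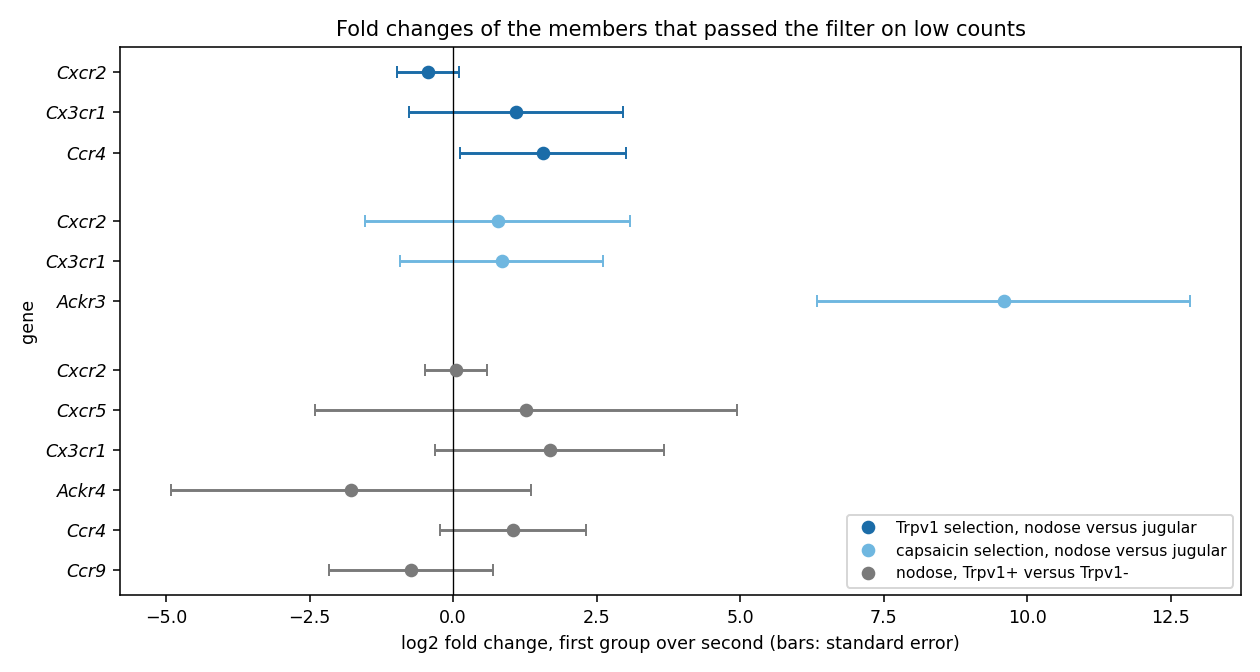
Log2 fold change (horizontal axis) of each receptor that passed the filter on low counts, for the 3 comparisons, with the standard error as a bar. Of 12 values, the bars of Ccr4 in the Trpv1 selection and of Ackr3 in the capsaicin selection (9.59 ± 3.25) stay clear of 0; the Ccr4 value moves to 0.79 without 1 jugular pool, and the Ackr3 value depends on the fit's prior count.

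Of 17 further chemokine receptors and related binding proteins, 11 (64.7%) had 0 counts in all 10 pools, among them Cxcr1, Cxcr3, Ccr7 and Ccr8. The share over all genes was 33.5%. The 10 receptors described above, each with reads in at least 1 pool, had been set apart from this list. That choice raised the share of the 17, so it is not read as a result. Ackr1, the atypical receptor best known from red cells and venules, was at 6.305 to 60.72 CPM in all 6 pools of the Trpv1 selection, at 63.11 CPM in the first capsaicin nodose pool, at 14.38 CPM in the second capsaicin jugular pool and at 0 in the other 2. Its 2 Trpv1+ nodose pools (13.89 and 52.24 CPM) and its 2 Trpv1+ jugular pools (6.305 and 60.72 CPM) overlapped. Erythroid markers had 0 counts in every pool. Xcr1, named after its values were seen, also exceeded 3 counts in 8 pools, but with at most 0.9604 CPM. Ccr2, the monocyte receptor for CCL2, reached 47.36 CPM in the first capsaicin jugular pool and at most 0.1755 CPM elsewhere. Of the list, 3, 1 and 3 genes passed edgeR's filter on low counts in the 3 comparisons. edgeR called 0 of them, and DESeq2 called 0 of the list. By edgeR 1 gene had an unadjusted p under 0.05, the CCL18 receptor candidate Pitpnm3, named after its values were seen. Pitpnm3 was at 9.183 and 5.517 CPM in the Trpv1+ nodose pools against 0.004307 and 0 CPM in the Trpv1+ jugular pools. Its DESeq2 adjusted p was 4.18e-06 and its edgeR adjusted p 0.321, and it missed the DESeq2 call only by the minimum of 10 CPM. Ackr2, named after its values were seen, had a DESeq2 adjusted p of 4.1e-07 in this comparison. Its reads came from 1 pool alone, the second Trpv1+ nodose pool (1.711 CPM).

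Of 14 other chemoattractant receptors, 6 had 0 counts throughout. Only 1, 0 and 1 of them passed edgeR's filter on low counts in the 3 comparisons. None of these was called or had an unadjusted p under 0.05 by edgeR, beside 11.9%, 14.1% and 11.1% of all genes. DESeq2 called none of the list, so little was tested here. Gpr1, a further chemerin receptor, reached 42.09 CPM in the first Trpv1+ nodose pool and at most 0.009808 CPM elsewhere. Hrh4, the histamine H4 receptor, reached 11.61 CPM in the first capsaicin jugular pool and had 0 counts elsewhere. Both therefore belonged to the transcripts seen in 1 pool of a pair.

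Ligand genes were unevenly present in the neurons. Of 43, which include ligands of other receptors, 20 (46.5%) had 0 counts in all pools, against 33.5% of all genes, and 22 exceeded 3 counts in at least 1 pool. Those at 0 included Cx3cl1 for Cx3cr1, Cxcl13 for Cxcr5, and Ccl17 and Ccl22 for Ccr4. Cxcl12, for Cxcr4 and Ackr3, was at 0.04118 CPM in 1 Trpv1+ nodose pool and at 0 in the other 9. Ccl19 and Ccl21a, for Ackr4, had 0 counts. These ligands were named for the receptor they bind, after their values were seen.

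The ligand genes with at least 10 CPM in a pool included several that bind these receptors. Mif, which also binds CXCR2 and CXCR4, was the only ligand gene at 10 CPM or more in all 10 pools, with 276.6 and 275 CPM in the Trpv1+ nodose pools, 334.7 and 249.9 in the Trpv1+ jugular pools, 148.9 and 142.4 in the Trpv1- nodose pools and 67.07 to 129.1 in the capsaicin selection. Like Cxcr2, it was higher in all 6 pools of the Trpv1 selection than in the 4 others. Ccl27a, for Ccr10, was at 16.31 to 68.09 CPM in the Trpv1 selection and at 1.138 to 11.29 CPM in the capsaicin selection. Ccl25, for Ccr9 and Ackr4, ran from 0 to 25.86 CPM in the Trpv1 selection and was at 101.7 CPM in the second capsaicin nodose pool. Cxcl1, for Cxcr2, was at 92.6 CPM in the first capsaicin jugular pool, 17.21 CPM in the second Trpv1+ jugular pool and 1.56 CPM or less elsewhere.

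The remaining ligand genes with at least 10 CPM bind receptors outside the 10. Ccl2 was at 21.27 to 58.1 CPM in the 6 pools of the Trpv1 selection, at 296.3 CPM in the first capsaicin jugular pool and at 0.2925 CPM or less in the other 3. Cxcl10 was at 31.35 and 22.88 CPM in the Trpv1+ nodose pools and at 40.74 and 6.054 CPM in the Trpv1- nodose pools. All lay above the 5.724 and 0.2989 CPM of the Trpv1+ jugular pools, but the share of all genes with this order is not given here. In the capsaicin selection the nodose pools (32.6 and 0.05851 CPM of Cxcl10) overlapped the jugular pools (15.73 and 11.09 CPM). Cxcl16 (69.49 CPM in the first capsaicin nodose pool), Ccl5 (10.95 CPM in the second Trpv1+ nodose pool) and Ccl7 (25.7 CPM in the first capsaicin jugular pool) peaked in single pools. The first capsaicin jugular pool thus held the highest level of Cxcl1, Ccl2, Ccl7, Ccr2 and Hrh4 of any pool.

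No ligand gene was called by edgeR or DESeq2 in any comparison. The median log2 fold change of the ligands that passed the filter was 1.08 in the Trpv1 selection (11 genes), 1.09 in the capsaicin selection (5 genes) and 0.63 between Trpv1+ and Trpv1- nodose neurons (12 genes), beside 0.03, -0.02 and 0.01 over all genes. In the last comparison 3 of the 12 ligands, and 11.1% of all genes, had an unadjusted p under 0.05 by edgeR; the 3 ligands were named after their values were seen. For Mif the log2 fold change was 0.95 ± 0.30 (SE), with an adjusted p of 0.369 by edgeR's quasi-likelihood test. Cxcl2, for Cxcr2, was at 7.556 and 5.654 CPM in the Trpv1+ nodose pools and at 0 and 0.004172 CPM in the Trpv1- nodose pools (adjusted p = 0.366 by edgeR and 3.21e-06 by DESeq2). Ccl7 was at 0 and 0.004904 CPM in the Trpv1+ nodose pools and at 8.141 and 4.519 CPM in the Trpv1- nodose pools (adjusted p = 0.366 by edgeR and 1.38e-05 by DESeq2). Both missed the DESeq2 call only by the minimum of 10 CPM. A small adjusted p by DESeq2 was also given to genes read in 1 pool. Ccl4, named after its values were seen, was at 7.016 CPM in the first Trpv1+ nodose pool and at 0 elsewhere. Its adjusted p in this comparison was 1.58e-07 by DESeq2.

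**Figure D5:**
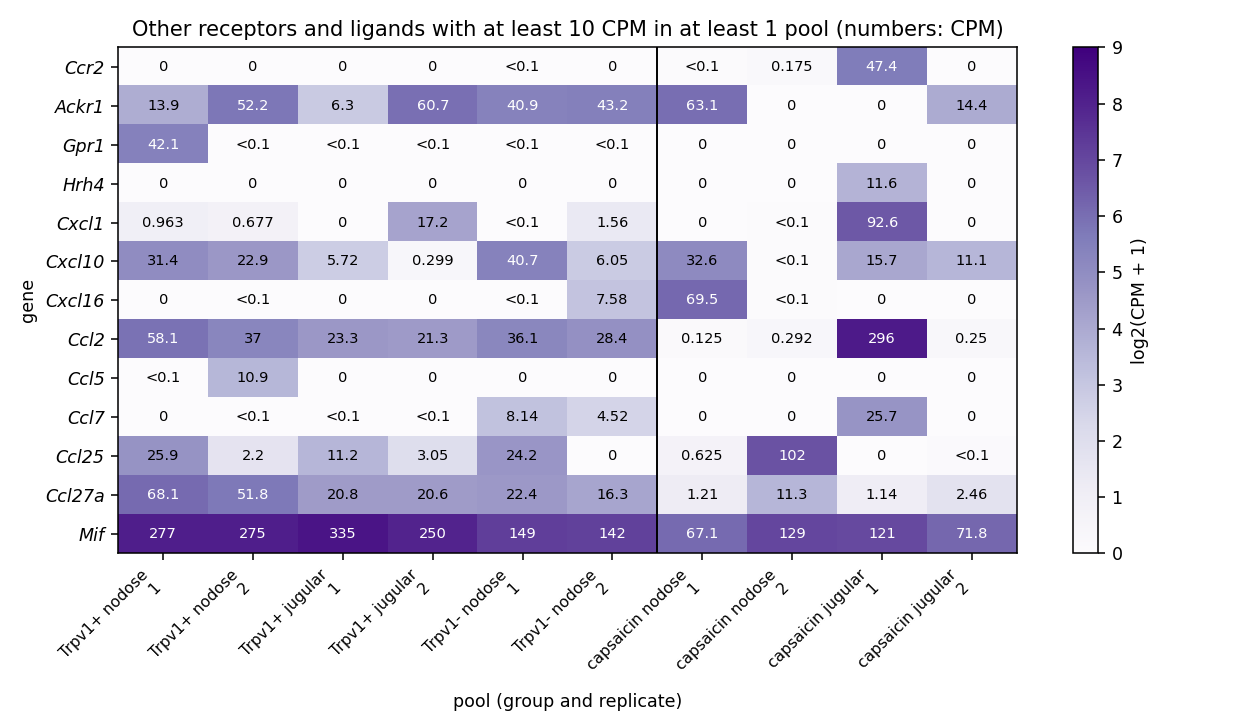
Level of each other receptor and ligand gene with at least 10 CPM in a pool (rows) in the 10 pools (columns), with CPM printed in the cells and log2(CPM + 1) as colour. Mif is filled in all columns, Ackr1 in 8 of 10, and the first capsaicin jugular pool alone is dark for Cxcl1, Ccl2 and Ccr2.

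The signalling machinery below these receptors was broadly present. Of 38 genes for Gi proteins, arrestins, receptor kinases, phospholipases, phosphoinositide 3-kinases, RGS proteins and Rac, 34 exceeded 3 counts in a pool and 8 reached 10 CPM in all 10 pools. The genes named below were chosen after their values were seen. The other 4 genes, at 0 throughout, were Plcb2, Pik3r6, Rgs1 and Rgs18. Gnai2, the Gi subunit through which chemokine receptors of leucocytes signal, was at 176.4 to 269.2 CPM in the Trpv1 selection and at 72.74 to 106.6 CPM in the capsaicin selection. Arrb2, an arrestin, was at 14.04 to 48.53 CPM in the Trpv1 selection. In the capsaicin nodose pools, where Ackr3 was highest, Arrb2 was at 22.76 and 0.468 CPM and Arrb1 at 79.79 and 0.351 CPM, so the pool with the most Ackr3 held the least of both arrestins among those 2 pools. Pik3cg, the phosphoinositide 3-kinase of neutrophil chemotaxis, did not exceed 0.6878 CPM in any pool. Gnb1, a Gβ subunit, stood apart from the rest of the list, at 118.6 to 262.8 CPM in the 6 pools of the Trpv1 selection and at 13360 to 73530 CPM in the capsaicin pools.

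RGS genes, whose products shorten G protein signals, included both genes of this list that DESeq2 called. edgeR called 0 of its genes in each comparison, and 4 of 32, 1 of 23 and 4 of 32 genes tested had an unadjusted p under 0.05, beside 11.9%, 14.1% and 11.1% of all genes. DESeq2 called 2 in the Trpv1 selection, Rgs2 and Rgs10, beside 3.84% of all genes. Rgs10 was at 58.95 and 27.18 CPM in the Trpv1+ nodose pools and at 594.2 and 576.1 CPM in the Trpv1+ jugular pools (log2 fold change -3.78 ± 0.47, adjusted p = 0.115, edgeR). Rgs2 was at 68.21 and 83.68 CPM in the Trpv1+ nodose pools and at 0.008613 and 0.00404 CPM in the Trpv1+ jugular pools (adjusted p = 0.122, edgeR). Rgs4 had an unadjusted p under 0.05 in all 3 comparisons, with log2 fold changes of -1.37 ± 0.36, -2.81 ± 0.60 and -1.55 ± 0.34, and adjusted p of 0.321, 0.352 and 0.366 by edgeR. The median of the list was 0.41, -0.09 and 0.24 in the 3 comparisons.

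The genes whose levels most resembled those of the leading receptors over the 10 pools were ranked by Pearson's r of log2(CPM + 1) among genes with a mean of at least 10 CPM. For Cxcr2 they were Zfp12 (r = 0.992), Myeov2 (0.991), Cox5b (0.988), D330041H03Rik (0.987) and Rmi2 (0.987). Their levels, like that of Cxcr2, were higher in every pool of the Trpv1 selection than in every capsaicin pool, and over the 6 pools of the Trpv1 selection alone r was 0.853, 0.804, 0.534, 0.935 and 0.959. For Cx3cr1 they were Ndufc2 (0.947), Ndufb8 (0.946), Snrpe (0.945), Atpif1 (0.943) and Ndufa13 (0.933), of which 3 encode subunits of respiratory complex I. For Ackr3 they were Qpct (0.991), Alg8 (0.961), Smad7 (0.954), Ranbp6 (0.94) and Tecr (0.937), each with its highest level in the capsaicin selection. The pools share library preparation and depth within a selection, so these values describe the pools and are not tests.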

How the data were processed

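Pools of picked neurons were lysed, and their cDNA was made with oligo-dT priming, amplified by PCR and sequenced as 50-base paired reads. The authors deposited raw read counts per gene symbol, 1 file per pool; they aligned the reads to mm10 with TopHat2 2.0.9 and Bowtie2 2.1.0.0 and counted with HTSeq. The gene annotation and strand setting are not given in the sources used here. Amplified reads without molecular identifiers are not independent molecules.

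Groups and replicate numbers came from the sample labels. CPM was the count over DESeq2's size factor (10 pools, 5492 genes) times the geometric mean total. The 3 comparisons were fitted with edgeR 4.0.16 (R 4.3.3; TMM, filterByExpr, quasi-likelihood test, Benjamini-Hochberg adjustment over all genes tested); DESeq2 1.42.0 was an alternative. With 2 pools a group, and pools that may share mice, p-values reflect only variation between these pools. That variation was estimated for each gene with information shared across genes. The SE of a log2 fold change was its absolute value divided by the square root of the F statistic of edgeR's test. The code was tested on simulated counts. The deviations of same-numbered pools had r = -0.00659, -0.0362 and -0.0136. With 2 pools a group a permutation p could not fall below 0.33, so this check cannot decide whether the numbers pair the pools. The pairing was not used in the main fits. Positions and transcripts came from GENCODE vM21 (GRCm38).

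The 10 receptors and the gene lists were chosen with earlier results of these data known. The text names the 10 receptors, listed genes that edgeR called, listed receptors and ligands that reached 10 CPM in a pool, the 5 genes most like Cxcr2, Cx3cr1 and Ackr3, neighbouring genes and cell type markers; other genes are marked as chosen after their values were seen. Protein sequences were not used here.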

Additional observations from a re-analysis of the deposited data

How the results depend on the processing

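With 2 pools a group the number of calls depended on the tool. In the Trpv1 selection edgeR called 35 genes, DESeq2 510, edgeR without the filter on low counts 59, edgeR with the replicate block 13, and 0 without any single pool (0 to 0). In the capsaicin selection the counts were 0, 707, 122 and 20, and 0 to 29 when single pools were left out. Between Trpv1+ and Trpv1- nodose neurons they were 6, 390, 10 and 1, and 0 to 0 with a pool left out. Fits with a group of 1 pool assume that it varies like the other group. Of the 10 receptors, 1 (Ackr3) was called in the capsaicin selection by DESeq2 and 0 by edgeR. Of the signalling genes, 2 were called in the Trpv1 selection by DESeq2 and 2 without the filter, and 1 in the capsaicin selection without the filter. Leaving out single pools moved the log2 fold change of Cxcr2 from -0.79 to 0.0 in the Trpv1 selection and from -0.25 to 0.42 between Trpv1+ and Trpv1- nodose neurons, that of Cx3cr1 from 0.80 to 1.45, from 0.0 to 3.32 and from 0.90 to 3.41 in the 3 comparisons, and that of Ackr3 from 8.34 to 10.26. The replicate block changed no call among the 10 receptors, of which edgeR had called 0 without it. Whether the replicate numbers pair the pools is not known. Mean Cxcr2 levels, reported as 90.4 (Trpv1+ nodose), 121.5 (Trpv1+ jugular), 88.5 (Trpv1- nodose) and 6.85 CPM (capsaicin jugular), were 129, 174, 122 and 7.23 CPM with TMM scaling, 116, 174, 144 and 8.58 CPM with plain totals and 129, 180, 148 and 8.58 CPM with totals without Rn45s; with size factors within a selection they were 120 CPM in Trpv1+ nodose and 6.39 CPM in capsaicin jugular pools. Except for these construction differences, the cause was not tested. At the depth of the capsaicin selection, levels under 0.118 to 0.176 CPM could not be told from 0.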
